A study of Arabidopsis thaliana with 5 samples.

Results

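The UDP-glycosyltransferase genes described here are the *Arabidopsis* genes whose symbol is UGT followed by a digit. Members were taken by symbol from the probe sets that the platform's table pairs with a single gene, without *UGT78D2* and *UGT74B1*. This gave 45 genes of 11 subfamilies, each with 1 probe set, among 13356 named genes and 22589 rows tested. The current RefSeq annotation (TAIR10.1) holds 56 such symbols, and the 11 others have no single-gene probe set in the table used here. The RNA was that of the closed buds of the main inflorescence, meristem included, so every floral stage before opening was pooled. The plants grew in soil under long days. The wild type was the Landsberg *erecta* ecotype (L*er*). The mutant was *ask1*-/- in the L*er* background, and its plants were picked from segregating progeny by their abnormal shoots and flowers. *ASK1* encodes a SKP1-like subunit of SCF ubiquitin ligases. The values used here come from 3 *ask1* and 2 L*er* ATH1 arrays, labelled as biological replicates, and no group carried a treatment.

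UGT enzymes move a sugar from a UDP-sugar onto a small acceptor molecule, which usually makes the acceptor more soluble and changes its activity, transport or storage. In plants the acceptors include flavonols, hydroxycinnamic acids, monolignols, auxin, cytokinins, abscisic acid, salicylic acid, sterols and foreign compounds. The subfamily number follows sequence similarity, so members with the same number share ancestry but need not share an acceptor. Flavonol glycosides and hydroxycinnamate esters are abundant in *Arabidopsis* flowers, and hormone conjugates are part of how floral organs set their hormone levels.

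The arrays had like distributions, with median log2 signals from 7.07 to 7.18 and between 22.8% and 24.5% of probe sets under a log2 signal of 5, the range in which background limits what a ratio can show. *ask1* replicates 1 and 3 were the closest pair, with 24 probe sets at least 2-fold apart, beside 292 between the L*er* arrays. *ask1* replicate 2 differed that much from *ask1* replicates 1 and 3 in 510 and 543 probe sets. From the L*er* arrays it differed in 411 and 360. Among the UGT genes, 0 were at least 2-fold apart between *ask1* replicates 1 and 3, and 2 and 1 were between *ask1* replicate 2 and these arrays. The probe set of *ASK1* has no gene name here, so the mutated gene was not checked by name. Few tissue markers have a named probe set. Of 10 floral identity genes only *UFO* does, at 5.99 to 6.29 on the 5 arrays. The tapetum regulator gene *AMS* was at 5.96 in L*er* replicate 1 and between 4.39 and 4.80 on the other arrays, and the rubisco activase gene *RCA* was at 12.16 to 12.77. *EXPA7*, known from root hairs, was at 5.84 to 5.95. Of 8 pollen genes only *AGL65* and *AGL66* are named, with a mean of both genes of 5.63 to 5.79 in *ask1* and 5.42 to 5.49 in L*er*, and *AGL66* was under 5 on every array. *SPT* and *NGA3*, the named ones of 6 pistil genes, had a mean from 7.16 to 7.57. The part of these differences in the results below was not tested.

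In wild-type buds the UGT probe sets reached from near background to well above it. The mean log2 signal in L*er* was under 5 for 17 of the 45 genes, from 5 to under 7 for 18, from 7 to under 9 for 9, and above 9 for *UGT78D1* alone. Signals under 5 were found for 37.8% of the UGT genes and for 23.9% of all rows, and the median L*er* signal was 5.34 against 7.14. On both L*er* arrays 27 genes were above 5, and on all 5 arrays 14 genes were under it. Probe sets bind with different strength, so these bands describe signals and not the order of RNA amounts between genes. The plot of signals by subfamily shows that the low signals were spread unevenly: 6 of the 7 UGT73 genes had at least 1 L*er* array at or under 5, whereas both UGT74 genes and both UGT78 genes were above it throughout.

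**Figure D1:**
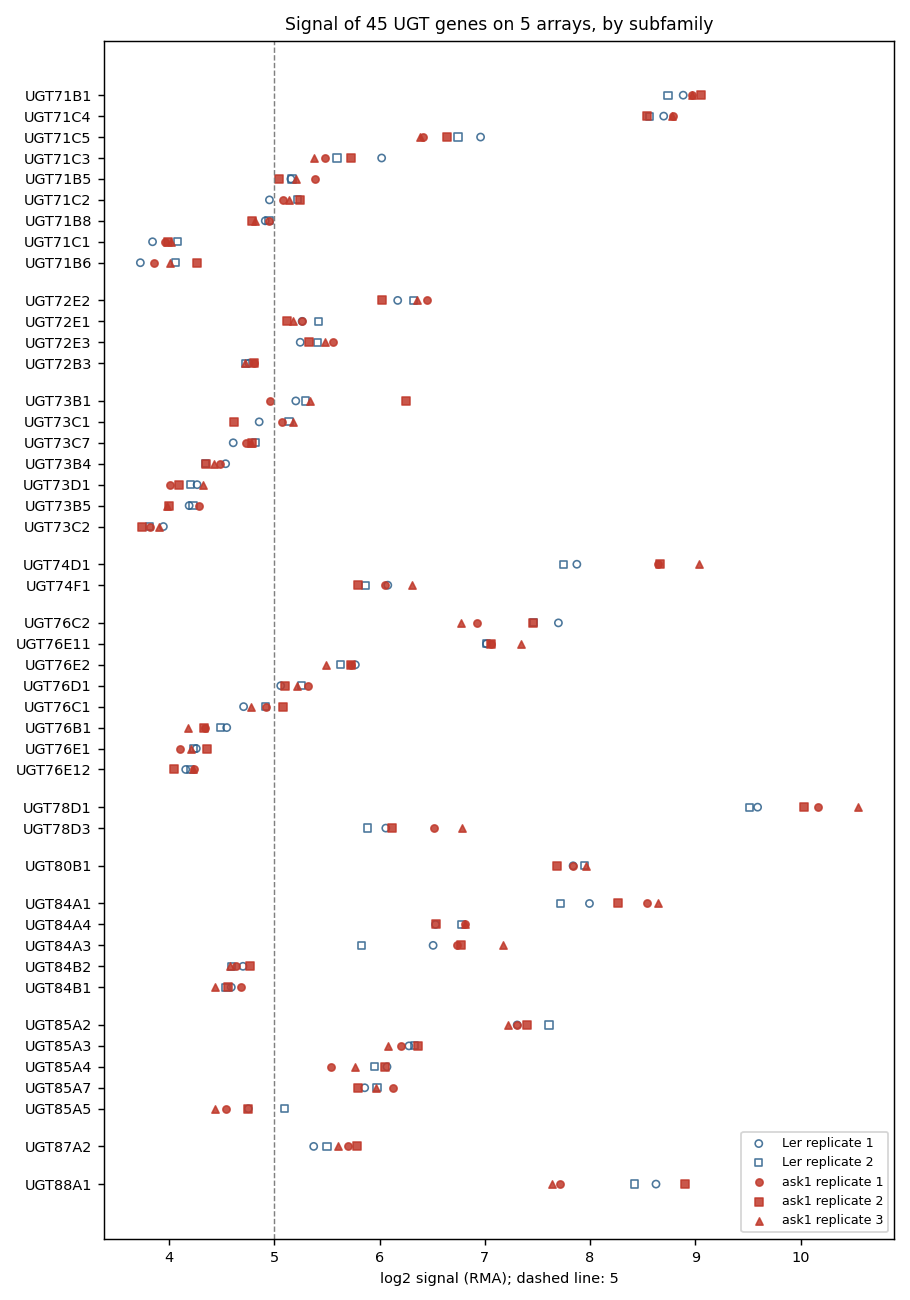
Log2 signal (horizontal axis) of each of the 45 UGT genes (rows, grouped by subfamily and ordered by the L*er* mean) on the 3 *ask1* arrays (filled symbols) and the 2 L*er* arrays (open symbols). The dashed line marks a log2 signal of 5, and *UGT78D1*, *UGT74D1* and *UGT84A1* show every *ask1* array to the right of both L*er* arrays.

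Between *ask1* and L*er*, the 45 UGT genes were centred near 0, with a median log2 ratio of 0.03 (quartiles -0.09 and 0.11) beside -0.01 for all rows. The ratio was above 0 in 24 genes and below 0 in 21. At an unadjusted p under 0.05 from limma, the *ask1* mean was higher in 5 genes and lower in 1. Those are 11.1% and 2.22% of the 45 genes, beside 3.98% and 2.97% of all rows tested. The higher genes were *UGT74D1*, *UGT84A3*, *UGT78D1*, *UGT84A1* and *UGT78D3*, which act on auxins, hydroxycinnamic acids and flavonols, and the lower one was *UGT71C5*, which acts on abscisic acid. None of the 45 passed after adjustment over all rows, where the smallest adjusted p was 0.235 from limma and the share of all rows that passed was 0.0133%. No member had a mean 2-fold apart, so none met the criteria of the methods, at least 2-fold with an unadjusted p under 0.05, which 0.589% of all rows met. All 6 genes below that unadjusted threshold had a L*er* mean of at least 5. In the 17 dimmer genes the ratios ran from -0.35 to 0.15. In a bulk sample of whole buds, fewer cells of a type and less RNA per cell cannot be told apart.

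Every *ask1* array lay above both L*er* arrays in 8 of the 45 genes (17.8%, beside 10.2% of all rows) and below both in 4 (8.89%, beside 10.7%). The 8 were the 5 higher genes named above together with *UGT71B1*, *UGT76E11* and *UGT87A2*, and the 4 were *UGT71C5*, *UGT76B1*, *UGT76C2* and *UGT85A5*. In 25 of the 45 genes the gap between the L*er* arrays was larger than the difference between the genotypes, which held for 63.7% of all rows. For 38 genes (84.4%, beside 93.9% of all rows) the 95% confidence interval of the ratio reached a 2-fold difference on neither side. The other 7 were *UGT74D1*, *UGT78D1*, *UGT84A1*, *UGT84A3*, *UGT76C2*, *UGT73B1* and *UGT88A1*, for which a 2-fold difference is not excluded.

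**Figure D2:**
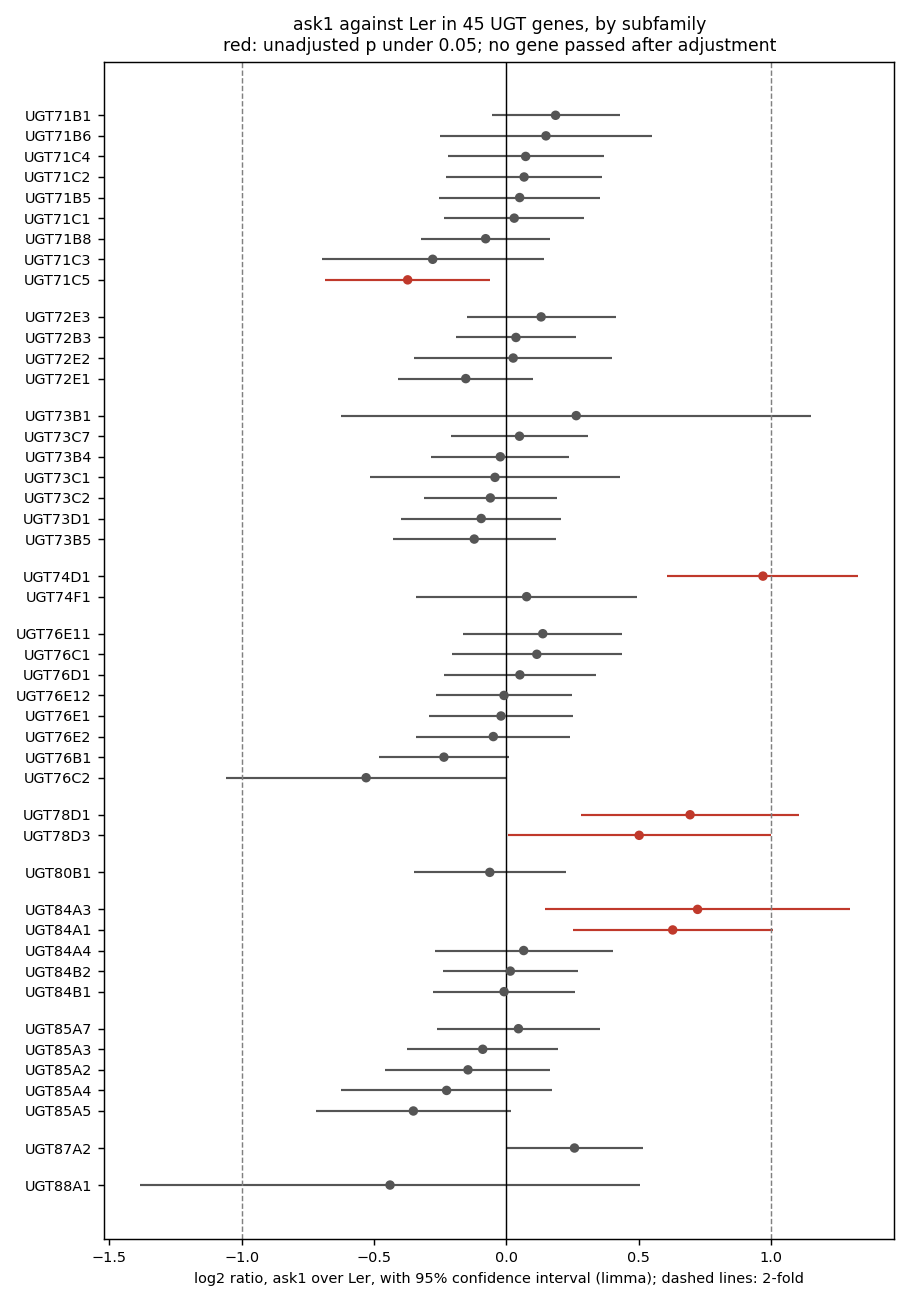
Log2 ratio of *ask1* over L*er* (horizontal axis, points) with its 95% confidence interval from limma (lines) for each of the 45 UGT genes (rows, by subfamily). Dashed lines mark a 2-fold difference; the 6 red genes had an unadjusted p under 0.05, and *UGT74D1* had the highest ratio, 0.97.

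The UGT74 subfamily held the highest ratio of the family. *UGT74D1*, whose product glucosylates auxins and their oxidised form, gave log2 signals of 8.65, 8.67 and 9.03 on the *ask1* arrays (replicates 1, 2 and 3, the order used throughout) against 7.87 and 7.75 on the L*er* arrays (replicates 1 and 2). The groups did not overlap, and the lowest *ask1* array stood clear of both L*er* arrays. The *ask1* mean of 8.78 ± 0.22 (SD, n = 3) was 1.96-fold the L*er* mean of 7.81 ± 0.09 (SD, n = 2), a log2 ratio of 0.97 (adjusted p = 0.235 from limma, standard error 0.15). *ask1* replicate 2 was here level with *ask1* replicate 1. Leaving out each array in turn moved the ratio between 0.84 and 1.04. Without *ask1* replicate 2 the adjusted p was 0.0442 from limma, with the *ask1* spread taken from the closest pair of arrays. *UGT74F1*, which forms salicylic acid glucoside, was the other UGT74 gene. Its signals of 6.05, 5.79 and 6.30 in *ask1* and 6.08 and 5.87 in L*er* overlapped, with a ratio of 0.08 and an interval from -0.34 to 0.49.

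Both UGT78 genes, which attach the first sugar to flavonols, had higher means in *ask1* at an unadjusted p under 0.05. *UGT78D1*, the flavonol rhamnosyltransferase gene, gave log2 signals of 10.17, 10.03 and 10.55 in *ask1* against 9.59 and 9.52 in L*er*. All *ask1* arrays were above both L*er* arrays, which were only 0.07 apart. The means of 10.25 ± 0.27 (SD, n = 3) and 9.55 ± 0.05 (SD, n = 2) differed 1.62-fold (log2 ratio 0.69, adjusted p = 0.443 from limma, standard error 0.17). *UGT78D3*, the flavonol arabinosyltransferase gene, measured 6.51, 6.12 and 6.78 in *ask1* and 6.06 and 5.88 in L*er*. Here *ask1* replicate 2 was just above L*er* replicate 1, and the groups were separated by that narrow margin. The ratio of 0.50 (adjusted p = 0.712 from limma, standard error 0.20) was 0.68 without *ask1* replicate 2 and was 0.35 without *ask1* replicate 3. Its unadjusted p was under 0.05 with all arrays or without *ask1* replicate 2, and above 0.05 when any of the other arrays was left out.

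Of the 5 UGT84 genes, 4 had a ratio above 0 and 2 of them an unadjusted p under 0.05. The median ratio was 0.07. *UGT84A1*, *UGT84A3* and *UGT84A4* lie next to each other in the genome, and their products form glucose esters of hydroxycinnamic acids. *UGT84A1* gave log2 signals of 8.54, 8.26 and 8.65 in *ask1* and of 7.99 and 7.72 in L*er*, so that the groups did not overlap. The ratio was 0.63 (1.55-fold, adjusted p = 0.446 from limma, standard error 0.15), and it stayed between 0.49 and 0.77 when each array was left out in turn. *UGT84A3* measured 6.74, 6.77 and 7.17 in *ask1* and 6.51 and 5.83 in L*er*. Its *ask1* arrays were all higher, but the L*er* arrays lay 0.68 apart, the widest L*er* gap in the family. The ratio of 0.72 (1.65-fold, adjusted p = 0.603 from limma, standard error 0.24) was 1.06 without L*er* replicate 1 but 0.38 with L*er* replicate 2 left out, and its unadjusted p was above 0.05 without L*er* replicate 2 or without *ask1* replicate 3. *UGT84A4*, their neighbour, measured 6.81, 6.54 and 6.81 against 6.53 and 6.78. These values interleaved, and the ratio was 0.07 with an interval from -0.27 to 0.40. *UGT84B1*, whose product esterifies auxin, and its neighbour *UGT84B2* stayed between 4.44 and 4.77 on all arrays, with ratios of -0.01 and 0.01.

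Against these, the 4 genes with a UGT72 symbol were close to their L*er* level. The products of *UGT72E1*, *UGT72E2* and *UGT72E3* glucosylate monolignols and related aldehydes, the building units of lignin. *UGT72E2* gave log2 signals of 6.45, 6.02 and 6.35 in *ask1* and of 6.17 and 6.32 in L*er*, with *ask1* replicate 2 the lowest of all arrays. Ratios in the subfamily ran from -0.15 (*UGT72E1*) to 0.13 (*UGT72E3*), and *UGT72B3* at 0.04 was under 5 on every array. The groups overlapped in all 4 genes. Another gene of this subfamily, *GT72B1* (UGT72B1), carries a symbol of its own and is given with the related lists below. Its ratio was 0.65, with every *ask1* array above both L*er* arrays, so the subfamily as a whole was not level.

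**Figure D3:**
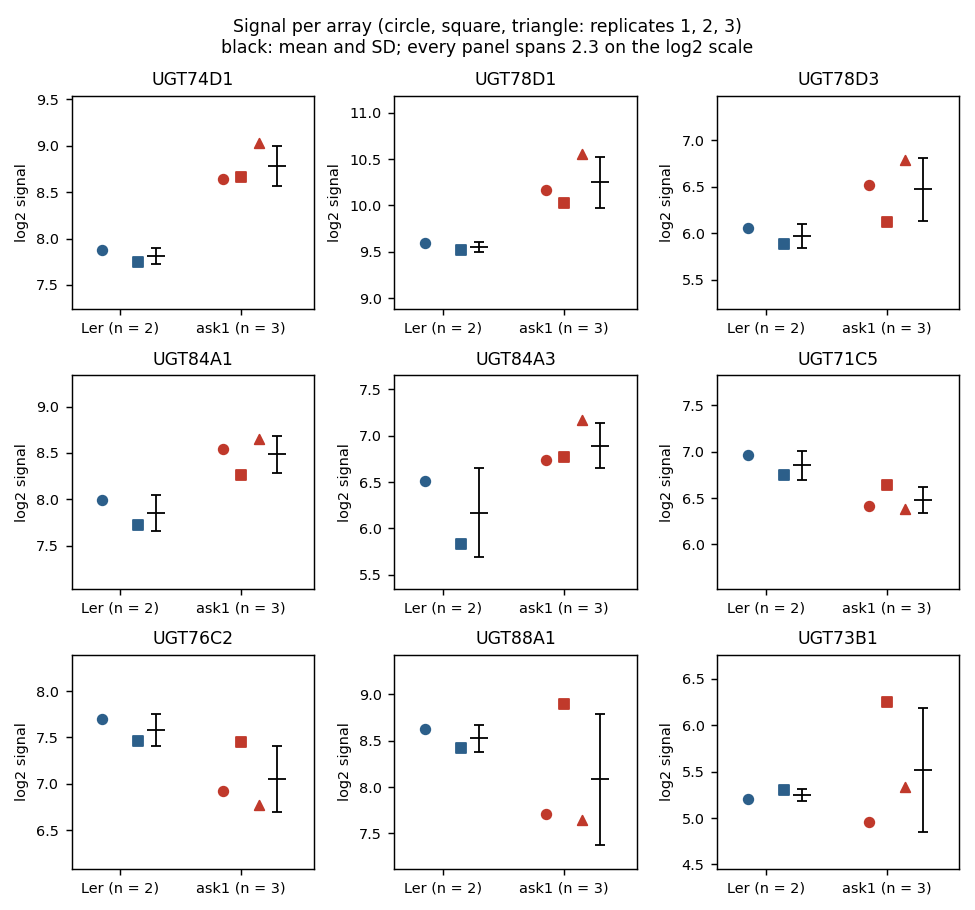
Log2 signal (vertical axis) of 9 UGT genes on each array, L*er* in blue and *ask1* in red, with circles, squares and triangles for replicates 1, 2 and 3 and the mean with its SD in black. *UGT74D1*, *UGT78D1* and *UGT84A1* separate the genotypes, while in *UGT88A1* and *UGT73B1* the square of *ask1* replicate 2 lies above every other array.

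Of the 8 UGT76 genes, 3 had a ratio above 0 and 5 below, with a median of -0.01. *UGT76C2* and its genomic neighbour *UGT76C1* encode the cytokinin N-glucosyltransferases. *UGT76C2* gave log2 signals of 6.93, 7.45 and 6.77 in *ask1* and of 7.70 and 7.46 in L*er*. All *ask1* arrays were lower, although *ask1* replicate 2 was within 0.01 of L*er* replicate 2. The ratio of -0.53, the lowest in the family (adjusted p = 0.718 from limma, standard error 0.22), missed the unadjusted threshold narrowly, and it was -0.73 without *ask1* replicate 2 and -0.39 without *ask1* replicate 3. *UGT76C1* measured 4.92, 5.08 and 4.78 against 4.71 and 4.92, a ratio of 0.11 near background. *UGT76B1*, whose product glucosylates salicylic acid and related immune signals, had 4.34, 4.34 and 4.18 in *ask1* and 4.55 and 4.49 in L*er*. Its groups did not overlap, but all 5 values were under 5 and the ratio was -0.24. *UGT76E11*, a flavonoid glucosyltransferase gene, measured 7.06, 7.06 and 7.34 in *ask1* and 7.02 and 7.02 in L*er*, a ratio of 0.14 with an interval from -0.16 to 0.44. The other 4 genes of the subfamily had ratios from -0.05 to 0.05.

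The 9 UGT71 genes had a median ratio of 0.05. *UGT71C5*, whose product forms the glucose ester of abscisic acid, was the 1 gene with a lower mean at an unadjusted p under 0.05. Its log2 signals were 6.41, 6.64 and 6.38 in *ask1* and 6.96 and 6.74 in L*er*. The *ask1* arrays were all lower, with *ask1* replicate 2 the nearest to L*er*. The ratio was -0.37 (1.30-fold lower, adjusted p = 0.626 from limma, standard error 0.13), and its unadjusted p was above 0.05 without *ask1* replicate 1, *ask1* replicate 3 or L*er* replicate 1, and also by the methods' t-test. Next to it in the genome, *UGT71C4* measured 8.79, 8.54 and 8.78 against 8.70 and 8.56, a ratio of 0.07, and *UGT71C3*, known for glucosylating methyl salicylate, measured 5.48, 5.73 and 5.38 against 6.02 and 5.60. In *UGT71C3* the groups overlapped, and its ratio of -0.28 was -0.07 or -0.49 when L*er* replicate 1 or 2 was left out. *UGT71B1* had 8.97, 9.05 and 8.97 in *ask1* and 8.88 and 8.74 in L*er*, a small separation with a ratio of 0.19 and an interval from -0.06 to 0.43. *UGT71B6*, another gene of abscisic acid glucosylation, was under 5 on all arrays, with a ratio of 0.15. For the remaining 4 genes (*UGT71B5*, *UGT71B8*, *UGT71C1* and *UGT71C2*) the ratios ran from -0.08 to 0.07.

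Of the 5 UGT85 genes, 4 had a ratio below 0, with a median of -0.15, and no member was under the unadjusted threshold. *UGT85A5* measured 4.54, 4.75 and 4.44 in *ask1* and 4.75 and 5.10 in L*er*. Its *ask1* arrays were all lower by a margin under 0.01 and close to background, and the ratio of -0.35 was -0.52 or -0.18 when L*er* replicate 1 or 2 was left out. *UGT85A2*, with 7.31, 7.41 and 7.22 against 7.31 and 7.61, overlapped between the genotypes, with a ratio of -0.15 and an interval from -0.46 to 0.17. *UGT85A4* had 5.54, 6.05 and 5.77 against 6.07 and 5.95, a ratio of -0.23. The neighbours *UGT85A2*, *UGT85A3* and *UGT85A5* all had ratios below 0, and *UGT85A7* was at 0.05.

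All 7 UGT73 genes overlapped between *ask1* and L*er*, with ratios from -0.12 to 0.26. This subfamily includes *UGT73B4* and *UGT73B5*, whose products act on foreign compounds or in redox responses to pathogens. Both were under 5 on every array, with ratios of -0.02 and -0.12. *UGT73B1* gave log2 signals of 4.96, 6.25 and 5.34 in *ask1* and of 5.20 and 5.30 in L*er*. *ask1* replicate 2 alone stood apart, and the ratio of 0.26 (standard error 0.36) was -0.11 without it.

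Each of the other 3 subfamilies was represented by a single gene. *UGT88A1* measured 7.71, 8.90 and 7.64 in *ask1* and 8.63 and 8.42 in L*er*. *ask1* replicates 1 and 3 were lower than both L*er* arrays and *ask1* replicate 2 was higher than both, so the mean ratio of -0.44 had a standard error of 0.39. Without *ask1* replicate 2 the ratio was -0.85 (adjusted p = 0.0374 from limma, with the *ask1* spread taken from the closest pair of arrays). Without *ask1* replicate 3 it was -0.22. *UGT87A2*, known as a regulator of flowering time, had 5.70, 5.78 and 5.60 in *ask1* and 5.37 and 5.50 in L*er*. Every *ask1* array was higher, by a ratio of 0.26 (adjusted p = 0.718 from limma, standard error 0.11) that missed the unadjusted threshold narrowly. *UGT80B1*, a sterol glucosyltransferase gene needed for the normal seed coat, was at 7.84, 7.68 and 7.96 against 7.84 and 7.94, with a ratio of -0.06 and an interval from -0.35 to 0.22.

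The discordant *ask1* replicate 2 touched much of the family. It was the *ask1* array farthest from the mean of the other two in 28 of 45 genes (62.2%), beside 42.7% of all rows. It lay above both other *ask1* arrays in 17 genes, below both in 19 and between them in 9. The distance to the mean of the others exceeded 0.5 in 5 genes, namely *UGT88A1* (1.22 above), *UGT73B1* (1.11 above), *UGT76C2* (0.60 above), *UGT78D3* (0.53 below) and *UGT73C1* (0.50 below). Without this array the mean was higher in 5 genes and lower in 5, again at an unadjusted p under 0.05, beside 5.99% and 6.73% of all rows. The 5 higher genes were the same as with all arrays, and the 5 lower ones were *UGT88A1*, *UGT76C2*, *UGT71C5*, *UGT85A5* and *UGT85A4*. *UGT74D1* and *UGT88A1* then passed the adjusted test, as did 1.65% of all rows.

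**Figure D4:**
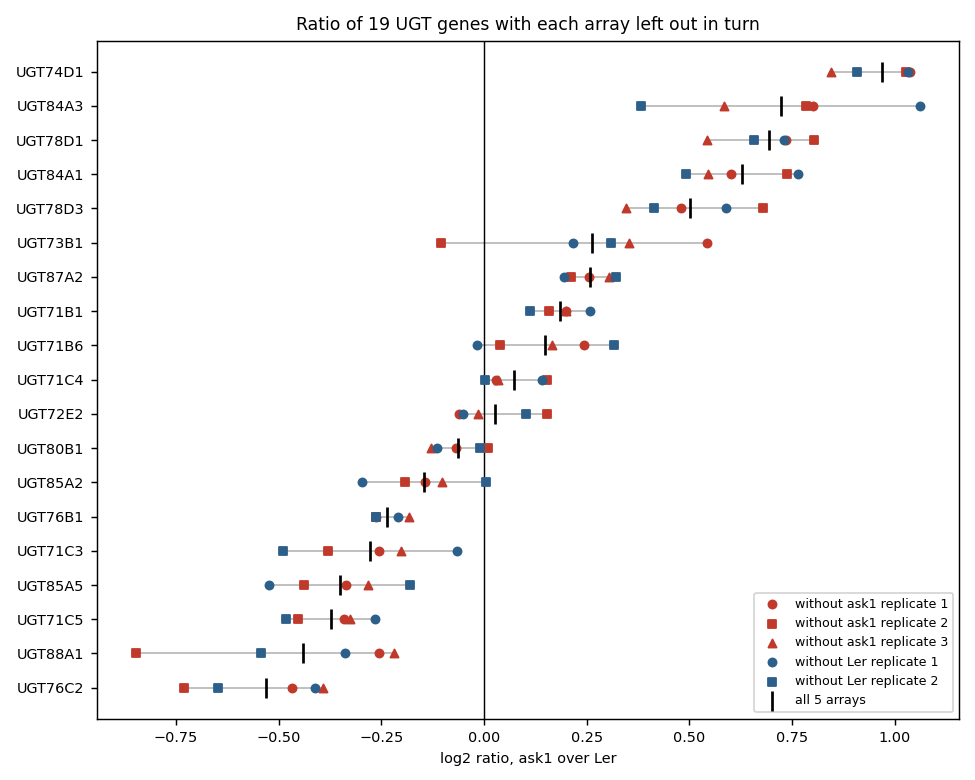
Log2 ratio of *ask1* over L*er* (horizontal axis) for 19 UGT genes (rows) with all 5 arrays (black bar) and with each array left out in turn (red symbols for *ask1* arrays, blue for L*er* arrays). *UGT74D1* stayed between 0.84 and 1.04, *UGT88A1* ranged from -0.85 to -0.22, and *UGT73B1* changed sign without *ask1* replicate 2.

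Runs of adjacent copies are common in plant gene families, and the 45 genes hold 9 runs of directly adjacent members, 21 genes in all. In the run of *UGT84A1*, *UGT84A3* and *UGT84A4* the ratios spanned 0.07 to 0.72, in *UGT76C1* and *UGT76C2* they spanned -0.53 to 0.11, and in *UGT71C3*, *UGT71C4* and *UGT71C5* they spanned -0.37 to 0.07. The ratios of *UGT84B1* and *UGT84B2* and of *UGT73C1* and *UGT73C2* lay within 0.03 of each other, at signals around or under 5. Probes of near-identical copies can bind each other's RNA, so separate values of neighbours are uncertain to that extent.

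Glycosyltransferase genes of the same family under other symbols were listed at 9 loci, of which *UGT80B1* is a member and 4 others were measured, with a median ratio of 1.35 beside -0.01 for all rows. *UF3GT* (UGT79B1), which extends the sugar of anthocyanins, measured 9.70, 7.28 and 9.82 in *ask1* and 6.68 and 7.07 in L*er*. AT4G14090, the anthocyanin 5-O-glucosyltransferase gene, measured 8.99, 6.60 and 9.76 against 6.39 and 6.13. In both, *ask1* replicate 2 lay close to L*er*, unlike in *UGT74D1*. *GT72B1*, whose product glucosylates monolignols and foreign phenols, had 7.81, 7.66 and 7.97 in *ask1* and 7.25 and 7.07 in L*er*, a ratio of 0.65 (adjusted p = 0.368 from limma, standard error 0.13) in which no array stood apart. *IAGLU* had a ratio of 0.14. At an unadjusted p under 0.05, 3 of the 4 had higher means, beside 3.98% of all rows. In *UF3GT* and AT4G14090 that difference lay in *ask1* replicates 1 and 3. The list was chosen with earlier results of these data known. It leaves out *SGT* (UGT80A2) and AT5G54010 (UGT79B6), described at the end, with ratios of -0.01 and 0.03. The 4 genes therefore do not stand for all such genes under other symbols.

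Of 34 listed genes for the supply of UDP-sugars, the donors of these enzymes, only *USP* was named, with a ratio of 0.09. Of 28 genes of phenylpropanoid and flavonoid synthesis, which make many of the acceptors, 4 were named, with a median ratio of 0.16. *DFR*, which makes leucoanthocyanidins, was at 9.88, 6.73 and 10.34 in *ask1* and 5.83 and 5.99 in L*er*, and it alone had an unadjusted p under 0.05. *HCT*, *BAN* and *ALDH2C4* had ratios of 0.17, 0.14 and -0.02. Beta-glucosidases remove glucose from such conjugates, and 20 of 40 annotated BGLU genes were measured, with a median ratio of -0.01. *BGLU40* measured 8.42, 8.17 and 8.52 in *ask1* and 7.81 and 7.72 in L*er*, a ratio of 0.60 (adjusted p = 0.388 from limma). *BGLU44* measured 10.14, 9.99 and 10.38 against 10.66 and 10.62, a ratio of -0.47 (adjusted p = 0.530 from limma). These were the BGLU genes with an unadjusted p under 0.05, 1 of 20 higher and 1 of 20 lower, close to the 3.98% and 2.97% of all rows. *BGLU45*, a monolignol glucosidase gene, had the lowest BGLU ratio, -0.71, with 5.36, 8.09 and 5.31 in *ask1* against 7.05 and 6.87 in L*er*, so that *ask1* replicate 2 was above and the other *ask1* arrays were below L*er*, the order seen in *UGT88A1*.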

How the data were processed

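Floral bud RNA of *ask1* (3 samples) and L*er* (2 samples) was hybridised to Affymetrix ATH1 arrays, which carry a set of short probes per transcript. The deposited values are log2 signals that the authors made with RMA (background correction, quantile normalization between arrays and summary per probe set). Quantile normalization removes any difference in total signal between arrays. The version of RMA is not given in the sources used here. The platform's annotation names 1 gene for 13513 of 22746 probe sets, several for 503 and none for 8730. The single-gene probe set with the highest mean signal stood for each gene, and probe sets without a single gene name were kept as separate rows (22589 rows). A further 3 probe sets that list a UGT gene together with another gene were not used as members.

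The 2-sided test of *ask1* against L*er* used lmFit and eBayes of limma 3.58.1 (R 4.3.3) with no block and Benjamini-Hochberg adjustment over all rows at a threshold of 0.05, and the fit was tested on simulated data. The methods' t-test was an alternative, beside limma-trend, array weights, 2 scalings, omission of dim rows, other rules for genes with several probe sets (2), a replicate block, an average of *ask1* replicates 1 and 3 and the omission of each array. The number of arrays limits the precision. Named genes were the members at an unadjusted p under 0.05, the 6 highest and 6 lowest ratios, the 8 highest L*er* signals, the brightest member of each subfamily and the 4 widest L*er* gaps. Other members were named in addition to complete their subfamilies. From the other lists came up to 4 genes at an unadjusted p under 0.05 and the extreme ratios. Members and lists were chosen with earlier results of these data known. Neighbours were read from the gene order of TAIR10.1. No sequence was used here.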

Additional observations from a re-analysis of the deposited data

How the results depend on the processing

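The 6 genes with an unadjusted p under 0.05 kept their direction under all 15 alternatives. Their groups did not overlap, so leaving out or averaging arrays could not reverse it, and several alternatives reuse the same ratio. The kept direction therefore adds little. *UGT74D1*, *UGT78D1* and *UGT84A1* also kept such a p in every alternative that held both L*er* arrays. At an unadjusted p under 0.05, genes with higher means numbered 5 with all arrays. They numbered 3 by the methods' t-test and 3 to 5 when each *ask1* array was left out. Genes with lower means at such a p numbered 1 with all arrays and 4 with limma-trend or array weights. They numbered 2 with centred arrays, a second quantile normalization, rows of a mean signal of at least 5 or every probe set as its own row. They numbered 0 with *ask1* replicates 1 and 3 averaged, and 0 to 5 when each *ask1* array was left out. Over all 22589 rows the methods' t-test gave 678 higher and 643 lower at such a p. The shares over all rows without *ask1* replicate 2 are given above, and those under the remaining settings were not counted. The counts under those settings therefore do not show whether the UGT genes differ from other rows. The adjusted test was passed by 0 genes in every fit except 2 without *ask1* replicate 2. By the methods' t-test at an unadjusted p under 0.05 the 3 higher genes were *UGT74D1*, *UGT78D1* and *UGT84A1*, and the 1 lower gene was *UGT76B1* in place of *UGT71C5*. The criteria of the methods were met by 0 genes with all arrays, by 1 with array weights (*UGT74D1*) and by 0 to 2 when each array was left out, the most without L*er* replicate 1 (*UGT74D1* and *UGT84A3*). The median ratio ranged from -0.03 to 0.02 when each array was left out, and the number of genes above 5 on the L*er* arrays from 27 to 30. With 1 L*er* array left, that array is assumed to vary like the *ask1* arrays.

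The replicate block gave 4 genes with higher and 0 with lower means at an unadjusted p under 0.05, and its share over all rows was not counted. Same-numbered arrays share only a number: the correlation of their deviations from the mean of their genotype was -0.26 for replicate 1 and -0.01 for replicate 2, and *ask1* replicate 3 has no partner. Ratios near 0 changed sign for *UGT72E2*, which was -0.015 under the block, -0.038 with *ask1* replicates 1 and 3 averaged and -0.061 to 0.15 when each array was left out. Leaving out 1 array changed the sign of the ratio in 21 of the 45 genes, 20 of them with a ratio within 0.2 of 0. The 6 genes above could not be among them, because their groups did not overlap. The 21 genes include *UGT72E2*, *UGT71B6* (-0.017 to 0.32), *UGT73B1* (-0.11 to 0.54), *UGT80B1* (-0.13 to 0.0096) and *UGT85A2* (-0.30 to 0.0054). Signals under 5 limit what a ratio can show in 17 of the 45 genes.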

Other observations

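Some single-gene probe sets have a UGT name as RefSeq synonym but not as symbol. Among them *UF3GT* and *GT72B1* are given above, with ratios of 2.06 and 0.65. The other 2 were in no list above and were chosen after their values were seen. AT5G54010 (UGT79B6), whose product extends flavonol sugars in pollen, had log2 signals of 4.34, 4.36 and 4.26 in *ask1* and 4.33 and 4.25 in L*er*, all under 5. *SGT* (UGT80A2), a sterol glucosyltransferase gene like *UGT80B1*, measured 8.76, 9.03 and 8.91 against 8.98 and 8.84, a ratio of -0.01 with an interval from -0.30 to 0.28, so the signals of both sterol genes overlapped between the genotypes. The 3 probe sets that list a UGT gene with another gene had ratios from -0.17 to 0.24, and 0 of them had an unadjusted limma p under 0.05.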
